A study of Mus musculus with 14 samples.

Results

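The effect of Rbp7 loss on the response of mouse carotid arteries to rosiglitazone was examined transcript by transcript, as the response in knockout (KO) arteries against the response in wild-type (WT) arteries. Every transcript with a mean of at least 5 TPM (the share of a transcript in its library, adjusted for its length and scaled so that a library sums to 1000000) that was listed at 0 in no more than 2 of the 14 libraries was included. This kept 12552 of the 63244 transcripts in the deposited table. The libraries came from carotid arteries of male C57BL/6J mice of both genotypes. WT arteries gave 3 libraries with the vehicle DMSO and 3 with rosiglitazone, and KO arteries gave 4 of each, with rosiglitazone at 10 µM and an exposure of 24 h in all groups. The labels leave unsettled whether arteries were exposed after removal or within the living mice. They name the knockout without saying how it was made or which cells carried it, and do not say whether replicates came from separate animals, so a p-value here measures how far libraries scatter, which may in part be technical.

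Rosiglitazone is a thiazolidinedione that binds PPARγ, a nuclear receptor that pairs with the retinoid X receptor and switches on genes of lipid uptake, lipid storage and adipokine production. Retinol-binding protein 7 is a small cytosolic carrier of vitamin A compounds, and its gene is known as a PPARγ target in endothelium. The carotid artery wall holds endothelium, smooth muscle and the cells of the adventitia, and fat often clings to it. The question put by the design is whether arteries without Rbp7 answer the drug as WT arteries do.

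Gene names are not paired with the identifiers in the files, and each transcript is called by its identifier. For the same reason, neither the level of Rbp7 nor markers of arterial cell types were used to check the labels. In bulk tissue, fewer cells of a type and less RNA per cell cannot be told apart. The 2 most abundant transcripts held 41.8% to 48.8% of the TPM in 12 libraries, and the KO libraries of replicate 4 stood apart at 33.2% in DMSO and 37.5% in rosiglitazone. The KO libraries of replicates 3 and 4 also carry sample numbers 18 to 21, a range with no WT library. No source used here gives the meaning of that range, and it cannot be told apart from genotype between WT and those libraries. The responder classes, the counts of calls and the main single transcripts are also given without some or all of these libraries. The pair correlations, the counts without overlap and the counts of one sign in all pairs are given with all libraries only. The same holds for responders chosen on all pairs, the splits by abundance, and the counts of near-0 libraries and of neighbours.

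The included transcripts held 94.2% to 96.6% of the TPM of a library, and their median level was 13.3 TPM. Of the 12552, 12433 were listed at 0 in no library, 72 in 1 and 47 in 2. A further 117 transcripts reached the mean but were listed at 0 in more libraries. At the limit of 5 TPM, uc012aii.1 was just inside with a mean of 5.00 TPM (5.00121 before rounding) and uc007rch.2 just outside with 4.9995 TPM. Some transcripts had values identical to those of another in every library. There were 85 of these in 31 sets, leaving 12498 distinct sets of values.

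The response was taken as the difference in log2(TPM + 1) between the rosiglitazone and the DMSO library of the same genotype and replicate number, which gave 3 WT and 4 KO pair differences per transcript. On this scale the change of low transcripts is understated. The labels do not say that a shared number marks a shared animal, and the main tests treated the libraries as unpaired.

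No included transcript had a response that differed between the genotypes at the chosen threshold. With limma, a linear model with moderated variances fitted to all 14 libraries, 0 of the 12552 transcripts (0.0%) had an interaction at a Benjamini-Hochberg adjusted p under 0.05, where the interaction is the KO response minus the WT response. Without adjustment, 129 (1.03%) had a p under 0.05, of which 60 (0.478%) had the higher response in KO and 69 (0.55%) the lower. Without KO rosiglitazone replicate 4 the count was 200. Over all 29304 transcripts tested, 2 passed (0.00683%), neither of them among the 12552, and 627 (2.14%) had an unadjusted p under 0.05. Both 1.03% and 2.14% lie below the share of 0.05 that such a threshold gives by chance, and the reason was not tested. Without the 4 KO libraries of sample numbers 18 to 21, 2 of the included transcripts passed, uc029wbi.1 and uc012duc.1, which are described among the reversed and blunted responses. In that fit the KO DMSO group of uc029wbi.1 and the KO rosiglitazone group of uc012duc.1 held only libraries listed at 0. Both calls thus rest on values listed at 0, which can be failed assignments.

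The drug response itself was also below this threshold for single transcripts in each genotype. In WT, 0 of 12552 transcripts (0.0%) passed with limma, and 375 (2.99%) had an unadjusted p under 0.05, 115 higher (0.916%) and 260 lower (2.07%) with rosiglitazone. In KO, 0 (0.0%) passed and 475 (3.78%) had an unadjusted p under 0.05, 120 higher (0.956%) and 355 lower (2.83%). Averaged over both genotypes, 0 (0.0%) passed and 821 (6.54%) had an unadjusted p under 0.05, 173 higher (1.38%) and 648 lower (5.16%). Among all 29304 tested, limma called 1 transcript in WT (0.00341%), 4 in KO (0.0137%) and 1 on average (0.00341%), and the shares with an unadjusted p under 0.05 were 3.51%, 4.5% and 6.37%. Single libraries moved the unadjusted counts. Without KO rosiglitazone replicate 4 the KO count was 1134 in place of 475 and the mean count 1373 in place of 821, and without WT rosiglitazone replicate 3 the WT count was 654 in place of 375. Without the libraries numbered 18 to 21 the KO count was 497, the WT count 647 and the mean count 1057. With replicate number as a block, 1 transcript passed in WT and 1 on average, and with a random block 1 passed in WT, 2 in KO and 45 on average, 18 higher and 27 lower. Library weights gave 1 call in WT and 5 on average. These comparisons share libraries, so their counts are not independent of each other. The named transcripts are given with their values, and none is called changed.

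The spread of the response over transcripts was compared between genotypes, with too few pairs for a p under 0.05. This spread also holds the scatter between single libraries, so it is not a measure of the drug response alone. The spread of the pair differences, measured as their SD over the 12552 transcripts, was 0.466, 0.451 and 0.439 in the 3 WT pairs and 0.441, 0.504, 0.480 and 0.481 in the 4 KO pairs. Between 3.09% and 3.62% of transcripts moved by more than 1 in a WT pair and between 3.34% and 4.47% in a KO pair. The lowest KO pair lay below 2 of the WT pairs and the other 3 lay above all of them. The mean SD was 0.452 ± 0.0136 in WT (SD, n = 3) and 0.477 ± 0.0260 in KO (SD, n = 4), a difference of 0.0244 (exact permutation test over pairs, two-sided, p = 0.171, where 0.0571 is the smallest p that this design allows).

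Pairs of one genotype had no higher median correlation with each other than with pairs of the other genotype. Spearman correlations of the pair differences across the 12552 transcripts are given as descriptions, since transcripts within a library are not independent and each pair of libraries shares its own technical history. Among WT pairs the 3 correlations ran from 0.018 to 0.252 with a median of 0.020. Among KO pairs the 6 ran from -0.094 to 0.360 with a median of 0.102, and the 12 between genotypes ran from -0.015 to 0.300 with a median of 0.128. The highest was between KO replicates 2 and 3 at 0.360, and the next were across genotypes, WT 2 with KO 2 at 0.300 and WT 1 with KO 2 at 0.294. Pairs WT 1, WT 2, KO 2 and KO 3 had values of 0.184 to 0.360 among them. WT 3 had 0.018 with WT 1 and 0.020 with WT 2, but 0.182 with KO 1 and 0.156 with KO 4. KO 1 had -0.084 with KO 2 and -0.094 with KO 3.

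**Figure D1:**
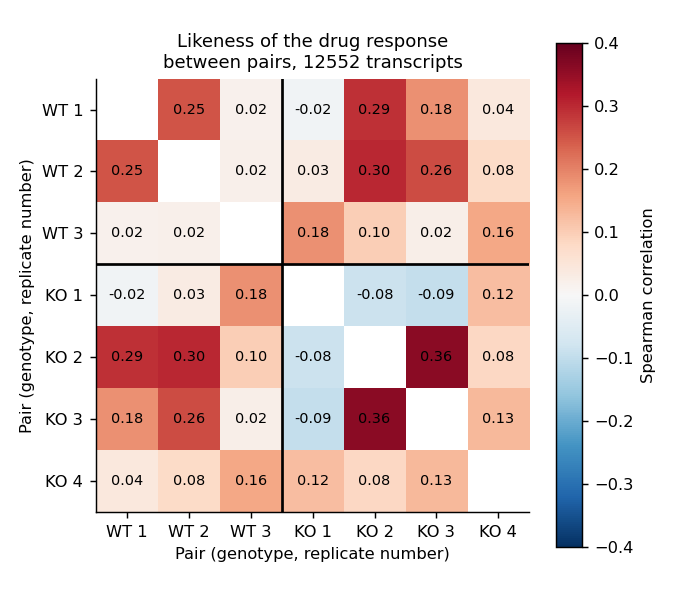
Spearman correlation of the rosiglitazone response, in log2(TPM + 1), between each of the 7 same-replicate pairs (both axes: genotype and replicate number), computed across 12552 transcripts, with black lines separating WT from KO. The highest cell is KO 2 with KO 3 at 0.36, and WT 1 and WT 2 come next to KO 2 at 0.29 and 0.30.

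Median likeness between pairs was greater among abundant transcripts, though not for every pair. For the 643 transcripts at a mean of 100 TPM or more, the median correlation was 0.101 within WT, 0.254 within KO and 0.286 between genotypes, and the highest value of each kind was 0.551, 0.672 and 0.676. The lowest value within KO was -0.128 there and -0.094 over all transcripts. The mean WT response and the mean KO response had a Spearman correlation of 0.366 and a Pearson correlation of 0.313 over all 12552. By abundance, the Spearman value was 0.284 for the 8142 transcripts from 5 to 20 TPM, 0.504 for the 3767 from 20 to 100 TPM and 0.750 for the 643 above.

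Responses of one direction in every pair were more often lower than higher with the drug in the deposited values, and more often higher after another scaling. All 7 differences were above 0 for 131 transcripts (1.04%) and below 0 for 725 (5.78%). With median-of-ratios scaling, 618 were above 0 and 223 below, so the share above 0 was 73.5% in place of 15.3%. The median response over the 12552 was -0.05 in WT and -0.06 in KO as deposited, and 0.02 and 0.05 with that scaling. Whether most small responses are higher or lower can therefore not be read from these values.

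Transcript uc008opl.2 had the largest response among those higher in all 7 pairs. WT DMSO libraries had 71.6, 82.5 and 109 TPM and WT rosiglitazone libraries 557, 427 and 397 TPM. KO DMSO libraries had 116, 121, 67.9 and 53.1 TPM and KO rosiglitazone libraries 218, 277, 135 and 118 TPM. The DMSO levels of the genotypes overlapped, and every WT rosiglitazone library lay above every KO rosiglitazone library. The pair differences were 2.94, 2.36 and 1.86 in WT and 0.91, 1.19, 0.98 and 1.13 in KO, so the groups did not overlap and the KO response was 44.1% of the WT response. The interaction was -1.33 on the log2 scale (SE 0.46, 95% interval -2.33 to -0.34) and did not pass over all tested transcripts (limma, Benjamini-Hochberg adjusted p = 1.00). It was -1.34 without the libraries of sample numbers 18 to 21. Over 26 alternative fits its adjusted p ran from 0.346 to 1.00, and none passed. Its WT response had an adjusted p of 0.0760 and its KO response one of 0.867 in the same limma fit. The WT response passed in limma with library weights (adjusted p = 0.0147), with replicate number as a block (0.0435) or random block (0.00663), with the sample number range as a covariate (0.000228) and without the libraries numbered 18 to 21 (0.00755). The KO response passed with that covariate (limma, adjusted p = 0.0498).

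**Figure D2:**
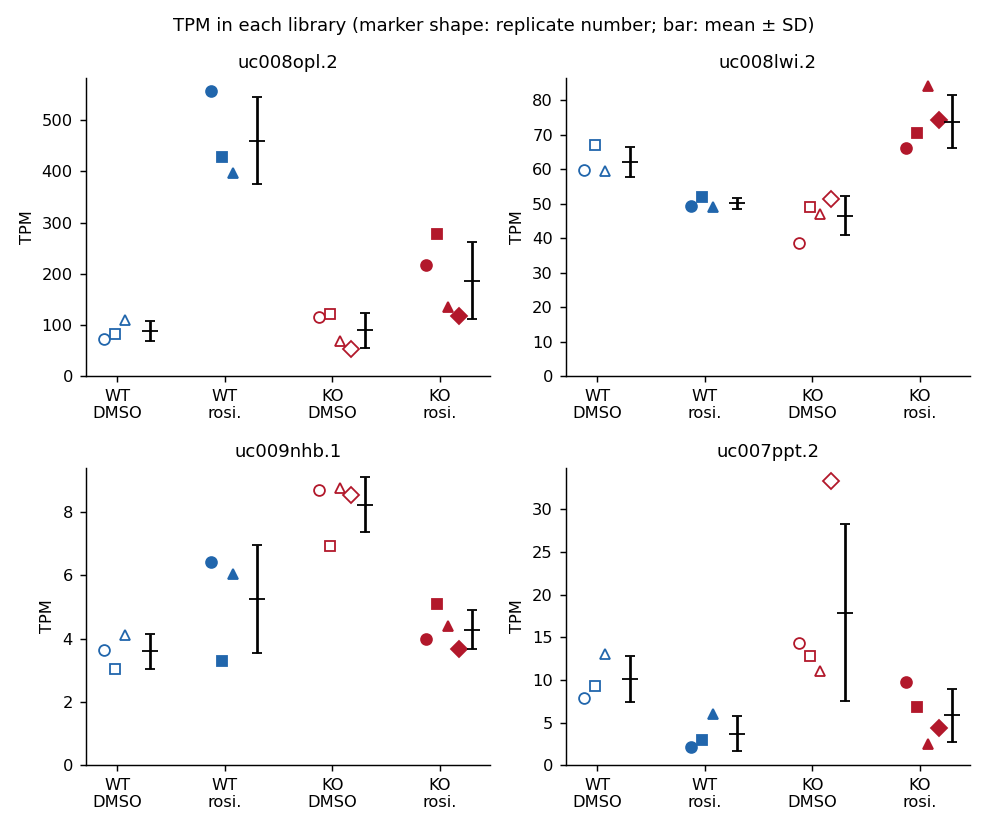
TPM in each library for 4 transcripts, by group (WT in blue, KO in red, open symbols DMSO, filled symbols rosiglitazone, marker shape for the replicate number, black bar for mean ± SD, n = 3 in WT and n = 4 in KO; vertical axes start at 0). The WT rosiglitazone libraries of uc008opl.2 sit between 397 and 557 TPM and the KO ones between 118 and 277 TPM, while uc008lwi.2 is lower with the drug in WT and higher in KO.

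The other transcript named among those higher in all 7 pairs, uc012apl.1, also had a smaller KO response, but with overlap. Its WT values were 10.5, 3.70 and 3.99 TPM in DMSO and 23.6, 35.9 and 13.6 TPM with the drug. Its KO values were 9.97, 20.8, 4.57 and 11.0 TPM in DMSO and 20.0, 33.5, 19.5 and 12.04 TPM with the drug. The differences were 1.09, 2.97 and 1.55 in WT and 0.94, 0.66, 1.88 and 0.12 in KO, which is 48.0% of the WT response, and the WT range lay partly within the KO range. The interaction was -0.97 (SE 0.67, 95% interval -2.41 to 0.46; limma, adjusted p = 1.00).

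Both transcripts named among those lower in all 7 pairs had a mean KO response slightly larger than the WT one. Transcript uc007ppt.2 had 7.90, 9.29 and 13.1 TPM in WT arteries with DMSO and 2.21, 2.92 and 6.07 TPM in those with rosiglitazone. Its KO levels were 14.3, 12.8, 11.0 and 33.3 TPM in DMSO and 9.74, 6.81, 2.47 and 4.42 TPM with the drug. The KO response was 112% of the WT response. KO DMSO replicate 4 was far above the other 3, and the KO differences of -0.51, -0.82, -1.79 and -2.66 enclosed the WT differences of -1.47, -1.39 and -0.995. Its interaction of -0.16 (SE 0.59, 95% interval -1.44 to 1.12) turned to 0.17 without that library.

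Transcript uc012dxs.1 had 16.4, 29.9 and 32.3 TPM in WT DMSO against 10.8, 6.74 and 16.5 TPM in WT rosiglitazone. The KO libraries had 13.96, 34.0, 17.1 and 23.7 TPM with DMSO against 3.502, 11.8, 12.8 and 9.52 TPM. The KO response was 104% of the WT response, with an interaction of -0.04 (SE 0.59, 95% interval -1.31 to 1.22) whose sign changed under several settings. The 95% intervals of both transcripts span more than 1 in each direction, so they do not show that the genotypes responded alike.

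The transcript with the smallest interaction p was uc008lwi.2, whose levels moved in opposite directions. WT DMSO libraries had 59.8, 67.0 and 59.3 TPM and WT rosiglitazone libraries 49.4, 51.9 and 49.0 TPM. KO DMSO libraries had 38.5, 48.9, 47.1 and 51.4 TPM and KO rosiglitazone libraries 66.2, 70.4, 84.0 and 74.4 TPM. Within each genotype the DMSO and rosiglitazone values did not overlap, being lower with the drug in WT and higher with it in KO. In DMSO all KO values lay below all WT values. The pair differences were -0.27, -0.36 and -0.27 in WT and 0.77, 0.52, 0.82 and 0.52 in KO. The interaction was 0.96 (SE 0.16, 95% interval 0.61 to 1.31; limma, adjusted p = 0.345). It passed in 1 of 26 alternative fits, the one with replicate number as a random block (adjusted p = 0.0283), and the others ran up to 0.929. Without the libraries of sample numbers 18 to 21 it was 0.94 (limma, adjusted p = 0.419). The KO response of uc008lwi.2 had an adjusted p of 0.109 in limma. It passed only with the random block (0.0114) and with the sample number range as a covariate (0.0498). A transcript listed next to uc008lwi.2, uc008lwj.2, at a mean of 7.31 TPM, had a response of 0.78 in WT and 0.27 in KO. It thus moved the opposite way in WT and the same way in KO, and whether the responses are linked was not tested.

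The next transcript with a higher KO response was uc007lcl.1. WT levels were 14.6, 14.6 and 13.9 TPM with DMSO and 12.1, 8.76 and 14.4 TPM with rosiglitazone. KO levels were 10.6, 9.16, 11.3 and 8.63 TPM with DMSO and 13.998, 14.9, 13.7 and 13.1 TPM with rosiglitazone. The KO values did not overlap between treatments, and the WT values did. In DMSO all KO values lay below all WT values. The interaction was 0.75 (SE 0.21, 95% interval 0.29 to 1.21; limma, adjusted p = 1.00). A transcript listed next to uc007lcl.1, uc007lcm.1, at a mean of 1.61 TPM, had the opposite responses, 0.94 in WT and -0.92 in KO. Whether the responses of these neighbours are linked was not tested.

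Among transcripts with a lower KO response, uc009nhb.1 had the smallest interaction p. The WT arteries had 3.62, 3.04 and 4.11 TPM with DMSO and 6.42, 3.29 and 6.03 TPM with rosiglitazone. The KO arteries had 8.67, 6.92, 8.74 and 8.53 TPM with DMSO and 3.98, 5.08, 4.38 and 3.66 TPM with the drug. As for uc008lwi.2, the genotypes did not overlap in DMSO, and with the drug the KO values lay near the WT DMSO values. The interaction was -1.22 (SE 0.27, 95% interval -1.81 to -0.63; limma, adjusted p = 1.00).

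Transcript uc007zwe.2 was higher with the drug in every WT pair, by 1.58, 1.29 and 1.02, and had KO differences of -0.49, 0.41, 0.40 and -1.13. Its WT DMSO libraries had 1.95, 1.04 and 2.77 TPM, below the KO DMSO libraries with 8.48, 5.71, 5.28 and 10.1 TPM, and the rosiglitazone libraries of the genotypes overlapped. The interaction was -1.50 (SE 0.41, 95% interval -2.38 to -0.62; limma, adjusted p = 1.00). The transcript listed next to it, uc007zwd.2, had a WT response of -1.61 and a KO response of 0.04. Reads that similar transcripts share are divided by estimation, and the part of this in the result was not tested.

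**Figure D3:**
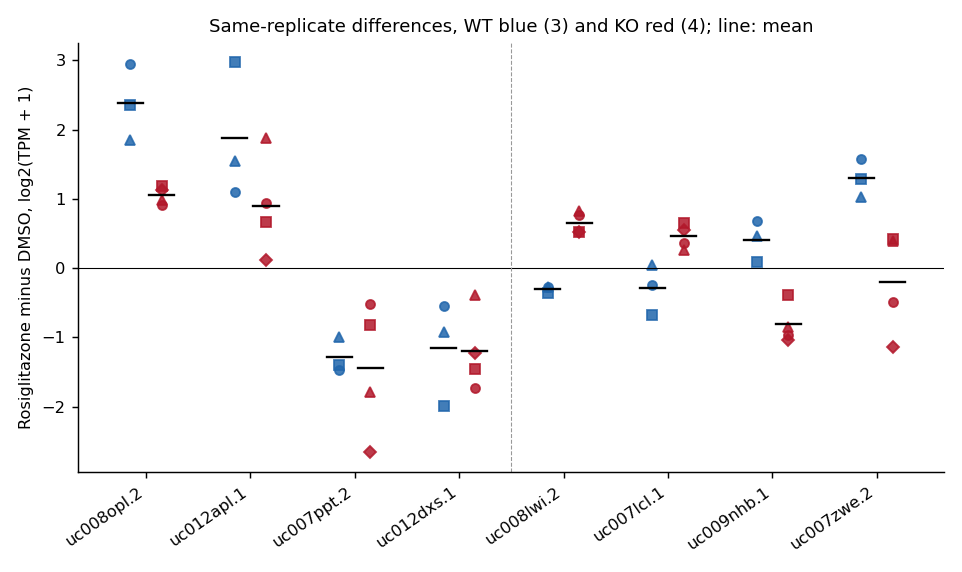
Rosiglitazone minus DMSO in log2(TPM + 1) for each same-replicate pair (vertical axis) of 8 transcripts (horizontal axis), WT in blue with 3 pairs and KO in red with 4, marker shape for the replicate number and a black line for the mean. Left of the dashed line are transcripts with 7 differences of one sign, where WT and KO separate for uc008opl.2; right of it are those with the smallest interaction p, where uc008lwi.2 has WT differences of -0.36 to -0.27 and KO differences of 0.52 to 0.82.

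Most responders chosen in WT had a smaller response in KO. A WT responder was a transcript with 3 WT differences of one sign and a mean of at least 1 in size, and 96 transcripts met this (0.765%), 39 higher (0.311%) and 57 lower (0.454%). By the ratio of the KO to the WT response, 28 were kept (29.2%, a ratio of at least 0.5), 61 blunted (63.5%, between -0.5 and 0.5) and 7 reversed (7.29%, at most -0.5). The median response in the chosen direction was 1.34 in WT and 0.26 in KO. In KO, 67 of the 96 had the same sign, 19 in all 4 pairs. The choice used the WT differences, so these values are a description without a test. With limma, 10 of the 96 had a KO response of the same sign at an unadjusted p under 0.05, 1 had one of the opposite sign, and 0 passed after adjustment, in KO or for the interaction. These 11.5% stand beside 3.78% of all 12552 in KO. The class sizes depended on the KO pairs used. Without KO replicate 4, 32 were kept, 47 blunted and 17 reversed, and 12 were reversed without KO replicate 1. Without the KO pairs numbered 18 to 21, 39 were kept, 37 blunted and 20 reversed. The share blunted or reversed was 70.8% with all pairs and 66.7% without KO replicate 4.

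With all pairs and a response of at least 1, blunted was the largest class in both directions. Of the 39 higher in WT, 8 were kept, 26 blunted and 5 reversed in KO, and of the 57 lower in WT, 20 were kept, 35 blunted and 2 reversed. With median-of-ratios scaling 50 were higher and 44 lower, which raised the share of higher responders from 40.6% to 53.2%. The difference between directions in the share kept was not tested. For WT responses of at least 0.5, 245 were kept, 240 blunted and 37 reversed, and at 20 TPM or more 10 were kept, 10 blunted and 2 reversed.

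Responders chosen in KO also had a smaller response in the other genotype. A KO responder had 4 differences of one sign and a mean of at least 1 in size, and 50 transcripts met this (0.398%), 16 higher (0.127%) and 34 lower (0.271%). In WT, 22 were kept (44.0%), 24 blunted (48.0%) and 4 reversed (8.00%). The median ratio of the WT to the KO response was 0.380, where the median ratio of KO to WT among the WT responders was 0.164. The lists shared 8 transcripts, 8.33% of the WT responders and 16.0% of the KO responders, and 7 of these had the same direction. The KO list asks for 4 pairs of one sign and the WT list for 3, so the lists differ in strictness as well as in genotype. With median-of-ratios scaling the share of higher KO responders was 52.1% in place of 32.0%. Without KO replicate 4 the share blunted or reversed in WT was 68.0% in place of 56.0%, over 103 KO responders. Without the KO pairs numbered 18 to 21 there were 164 KO responders, of which 46 were kept, 98 blunted and 20 reversed in WT. For KO responses of at least 0.5, 198 were kept, 129 blunted and 20 reversed in WT. With limma, 10 of the 50 had a WT response of the same sign at an unadjusted p under 0.05 and 1 had one of the opposite sign, together 22% beside 2.99% of all 12552 in WT, and 0 passed after adjustment.

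**Figure D4:**
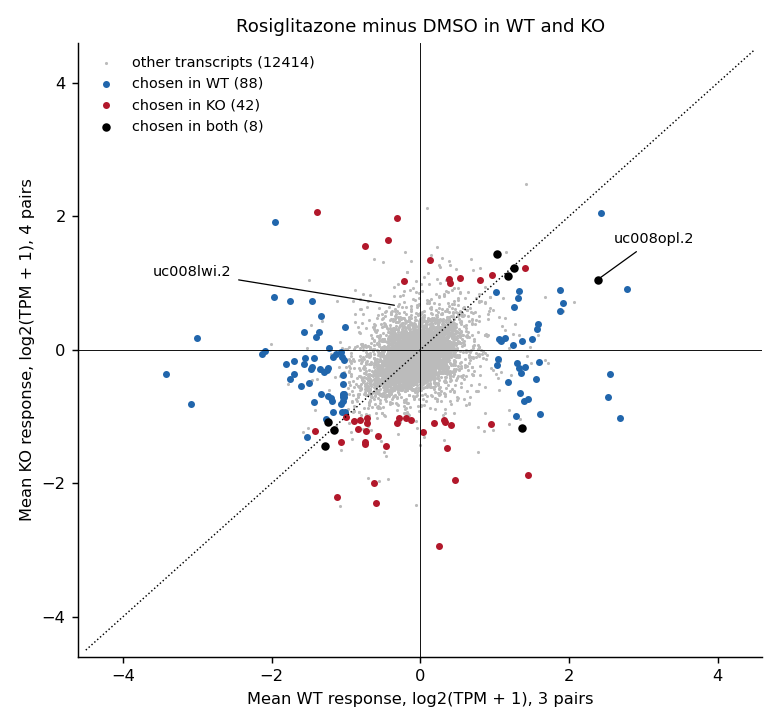
Mean response to rosiglitazone in log2(TPM + 1) over 3 WT pairs (horizontal axis) and over 4 KO pairs (vertical axis) for 12552 transcripts, with the dotted line marking equal responses. The transcripts chosen in WT spread along the horizontal axis and those chosen in KO along the vertical one, and 8 were chosen in both.

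For responders chosen in WT, the response was about as small in the remaining WT pair as in KO pairs. When WT responders were chosen in 2 WT pairs by the same rule, 180, 166 and 212 transcripts were found with WT pair 1, 2 or 3 left out. Their median response in the choosing pairs was 1.38, 1.38 and 1.29, and in the WT pair left out it was 0.10, 0.24 and 0.11. In the 4 KO pairs the medians for these lists were 0.11 to 0.37, 0.11 to 0.23 and 0.07 to 0.42. The held-out WT pair thus lay just below, just above and within the range of the KO pairs. At least 0.5 of the size was kept by 30.0%, 34.9% and 24.1% in the held-out WT pair, against 27.8% to 35.6%, 27.7% to 33.7% and 19.8% to 40.1% in the KO pairs.

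The reciprocal choice was read in the same way. KO responders chosen in 3 KO pairs numbered 129, 94, 90 and 103, with medians in the held-out KO pair of 0.04, 0.03, 0.14 and 0.18. Their medians in the WT pairs were 0.35 to 0.55, 0.26 to 0.30, 0.04 to 0.43 and 0.11 to 0.40. For held-out KO pairs 1 and 2, all 3 WT pairs lay above the KO pair, so that the response was larger in the other genotype than in the KO pair left out. Among transcripts of at least 20 TPM and with responses of at least 0.5, chosen after the data were seen, the held-out WT pair had medians of 0.08 to 0.40 beside 0.33 to 0.36 for the middle of the KO pairs, and the held-out KO pair had 0.09 to 0.45 beside 0.41 to 0.50 for the middle of the WT pairs. At 100 TPM or more these were 0.01 to 0.44 beside 0.43 to 0.49 and 0.15 to 0.74 beside 0.50 to 0.60. The differences between held-out pairs and the other genotype were not tested.

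**Figure D5:**
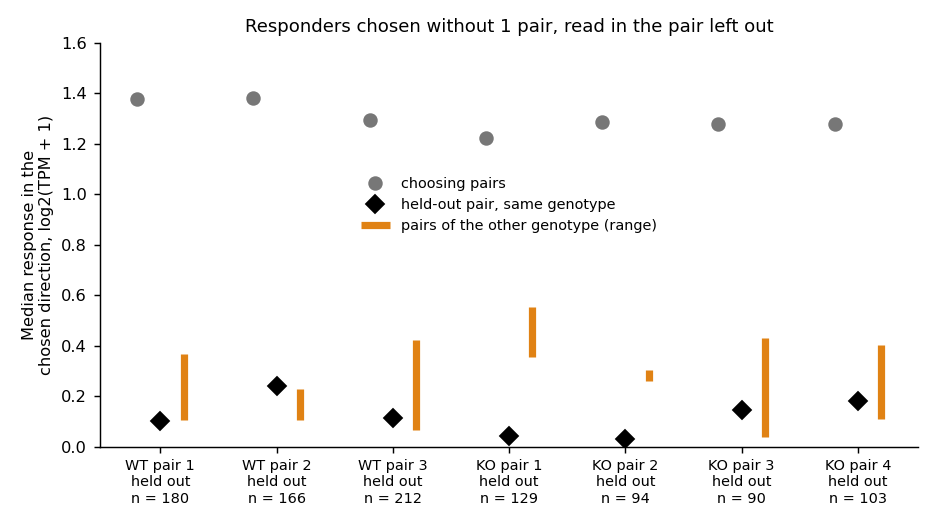
Median response in the chosen direction, in log2(TPM + 1), of responders chosen with 1 pair left out (horizontal axis: the pair left out and the number of transcripts), shown in the choosing pairs (grey), in the pair left out (black) and as the range over the pairs of the other genotype (orange). The choosing pairs have medians of 1.22 to 1.38, and the pair left out has 0.03 to 0.24.

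When responders were chosen on all 7 pairs at a mean of at least 0.5, the weaker response was found about as often in WT as in KO. A mean of the 7 differences of at least 0.5 in size was found for 540 transcripts, 164 higher and 376 lower. The response was the weaker one in KO for 279 and in WT for 261, and the median difference in the chosen direction was -0.02. The KO response was under 0.5 of the WT response for 96 and the WT response under 0.5 of the KO response for 105. An unadjusted interaction p under 0.05 was found for 17 of the 540 (3.15%, limma), beside 1.03% of all 12552. With median-of-ratios scaling there were 459 such transcripts, weaker in KO for 229 and in WT for 230.

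At a mean of at least 1 in size, 61 transcripts remained. Among the 21 that were higher with the drug, 14 were weaker in KO and 7 in WT, and among the 40 that were lower, 14 were weaker in KO and 26 in WT. The KO response was under 0.5 of the WT response for 8 of the 21 and 5 of the 40. The WT response was under 0.5 of the KO response for 1 of the 21 and 12 of the 40. These counts are descriptions. Where all 7 differences also had one sign, 162 transcripts had a mean of at least 0.5, of which 77 were weaker in KO and 85 in WT, and 13 had a mean of at least 1, of which 7 were weaker in KO and 6 in WT.

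Differences between genotypes without overlap were about as frequent in each direction. All 4 KO differences lay above all 3 WT differences for 194 transcripts (1.55%) and below them for 223 (1.78%). If genotype made no difference, no overlap in one direction or the other would have a probability of 0.0571, the smallest p of the exact permutation test. These shares do not exceed that chance. With median-of-ratios scaling these were 273 and 202, so that the share above moved from 46.5% to 57.5%. Opposite signs in all pairs always imply no overlap, so in the deposited values such transcripts are among the 194 and 223. They could therefore not be more frequent. For 40 transcripts (0.319%) the 3 WT differences were above 0 and the 4 KO differences below, and for 41 (0.327%) the reverse held.

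The share of responders that were kept was higher among abundant transcripts, with few responders at 100 TPM or more. Of the 74 WT responders from 5 to 20 TPM, 18 were kept in KO (24.3%), and of the 20 from 20 to 100 TPM, 9 were kept (45.0%). There were 2 WT responders at 100 TPM or more, the blunted uc008opl.2 and the kept uc007hda.1. Of the KO responders, 14 of 37 (37.8%), 4 of 9 (44.4%) and 4 of 4 (100%) were kept in WT in the same ranges. The last 4 include uc008opl.2, whose WT response was 227% of its KO response, since kept has no upper limit. The difference between the ranges was not tested.

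Transcript uc007hda.1, chosen for mention after its values were seen, had 487, 849 and 884 TPM in WT arteries with DMSO and 265, 291 and 521 TPM with rosiglitazone. Its KO levels were 974, 631, 842 and 843 TPM in DMSO and 914, 186, 326 and 595 TPM with the drug. The KO response was 87.5% of the WT response, and KO pair 1 hardly moved, with a difference of -0.09.

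The 4 KO responders at 100 TPM or more were uc008opl.2, uc008pdi.1, uc009nhq.1 and uc008rbx.1, and the last 3 were also chosen for mention after their values were seen. Transcript uc008rbx.1 was lower with the drug in all 7 pairs, by differences of -0.87, -0.40 and -1.23 in WT and -0.78, -1.17, -1.20 and -1.58 in KO. The WT response was 70.5% of the KO response. Transcript uc009nhq.1 was higher in all 7 pairs, with differences of 1.38, 0.97 and 0.52 in WT and 0.44, 1.63, 1.37 and 1.05 in KO, and transcript uc008pdi.1 had 1.32, 1.11 and -0.01 in WT and 0.34, 1.398, 1.46 and 0.97 in KO. The WT response was 85.3% of the KO response for uc009nhq.1 and 77.4% for uc008pdi.1. For both, KO pair 1 was the lowest KO pair and WT pair 3 the lowest WT pair. Interactions were -0.35 (SE 0.37) for uc008rbx.1, 0.16 (SE 0.46) for uc009nhq.1 and 0.24 (SE 0.54) for uc008pdi.1. Transcript uc008tlz.1, at a mean of 42.2 TPM, was added because it is shared with another account of these data. Its differences were 1.20, 0.79 and 0.83 in WT and 0.57, 0.94, 0.55 and 1.11 in KO. The KO response was 84.3% of the WT response, with an interaction of -0.15 (SE 0.24). The mean response of uc008tlz.1 was 0.87 (limma, adjusted p = 0.0730), and it passed under some alternatives, such as a random block (adjusted p = 0.00668).

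Blunted and reversed transcripts often had a library near 0. The lowest library was under 0.5 TPM for 35 of the 61 blunted WT responders (57.4%), 3 of the 7 reversed and 7 of the 28 kept (25%), beside 308 of all 12552 (2.45%). Among KO responders it was 16 of the 24 blunted (66.7%) and 6 of the 22 kept (27.3%). A transcript on a neighbouring line of the table moved the opposite way in WT by at least 0.5 for 22 of the 61 blunted WT responders, 1 of the 28 kept and 0 of the 7 reversed, beside 1039 of all 12552 (8.28%). The part of near-0 libraries and of shared reads in these classes was not tested.

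The blunted WT responders with the largest WT response had several such libraries. Transcript uc008vuf.1 had 6.73, 10.8 and 12.6 TPM in WT arteries with DMSO, and none of the 3 WT rosiglitazone libraries was above 0.0113 TPM. In KO it was present at 14.6 and 12.1 TPM in DMSO replicates 2 and 3 and at 2.95 and 16.8 TPM in rosiglitazone replicates 1 and 2, and was at most 0.0415 TPM in the other 4. Presence and near absence thus occurred under both treatments in KO, and the KO differences of 1.98, 0.19, -3.65 and 0.00 overlapped the WT differences of -2.95, -3.54 and -3.76.

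Transcript uc012dpk.1 had 4.97 TPM in 1 WT DMSO library, at most 0.000876 TPM in the other two, and 11.8, 11.9 and 10.7 TPM with the drug. Among the KO libraries it was at 13.6 and 14.8 TPM in DMSO replicates 1 and 4 and at 9.19, 13.8 and 17.8 TPM in rosiglitazone replicates 1, 3 and 4, and it was at most 0.00172 TPM in the other 3. Transcript uc011wlr.1 had WT differences of 2.10, 0.44 and 5.50 and KO differences of -4.33, 0.88, 0.14 and -0.76, with 1 library of each genotype listed at 0. A transcript listed next to uc011wlr.1, uc011wls.1, at a mean of 13.1 TPM, moved the opposite way, by -0.63 in WT and 1.36 in KO. Transcript uc009hcg.1 had WT differences of -4.44, -3.30 and -1.50 and KO differences from -7.42 to 6.11, the widest range among the 23 transcripts named by rule.

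Of the reversed WT responders, uc007tci.1 had no library near 0. In WT its levels were 9.73, 1.96 and 9.72 TPM with DMSO and 16.8, 19.2 and 18.2 TPM with rosiglitazone. In KO they were 12.8, 9.75, 13.2 and 19.1 TPM with DMSO and 14.7, 9.87, 1.54 and 11.4 TPM with rosiglitazone. Its differences were higher in all WT pairs and did not overlap with KO, where 2 pairs were near 0 and 2 were lower. The transcript listed next to it, uc007tcj.1, at a mean of 10.3 TPM, had the opposite responses, -0.497 in WT and 1.32 in KO, just under the size of 0.5 used to count such neighbours. Transcript uc007yrz.1 had WT differences of 3.39, 1.22 and 0.24 and KO differences of -0.34, -1.46, -2.01 and -0.01, and 1 WT DMSO library near 0. The interactions were -2.19 (SE 0.79) for uc007tci.1 and -2.57 (SE 0.86) for uc007yrz.1, each with an adjusted p of 1.00 in limma.

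Transcript uc029wbi.1 was reversed through 2 libraries. Its WT levels were 29.9, 26.4 and 78.2 TPM with DMSO and 8.46, 8.39 and 12.02 TPM with rosiglitazone. In KO DMSO it was listed at 0 in replicates 1 and 2 and had 33.9 and 70.5 TPM in replicates 3 and 4, and in KO rosiglitazone it had 22.8, 21.8, 22.3 and 38.2 TPM. KO pairs 3 and 4, with differences of -0.58 and -0.87, moved as WT did. Its interaction of 3.86 (SE 1.74; limma, adjusted p = 1.00) passed at 6.50 without the libraries of sample numbers 18 to 21 (limma, adjusted p = 0.0142). Transcript uc011zid.1 had its WT response mainly in 1 pair, with WT differences of -0.31, -0.02 and -4.06 and 1 WT rosiglitazone library listed at 0.

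Among KO responders blunted in WT, uc012duc.1 had the largest KO response. It had 22.2, 22.7, 29.5 and 12.2 TPM in KO DMSO, was listed at 0 in KO rosiglitazone replicates 1 and 2, and had 4.58 and 10.2 TPM in replicates 3 and 4. The WT libraries had 4.46, 9.31 and 5.16 TPM with DMSO and 8.94, 4.49 and 9.56 TPM with the drug, and these overlapped. The interaction was -3.19 (SE 1.00; limma, adjusted p = 1.00), and it passed at -4.80 without the libraries of sample numbers 18 to 21 (limma, adjusted p = 0.0231). KO pairs 1, 2 and 3 had differences of -4.54, -4.57 and -2.45, and pair 4 had -0.23.

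The other KO responders blunted in WT had wide differences. Transcript uc008jke.2 had KO differences of -1.42, -2.72, -0.76 and -4.25 and WT differences of 0.21, -1.59 and -0.43. Transcript uc012eip.2 had KO differences of 0.77, 4.32, 1.29 and 1.5, above its WT differences of 0.60, -2.08 and 0.52, and was listed at 0 in 1 library, KO DMSO replicate 2. Transcript uc012fxd.2 had KO differences of 1.01, 1.96, 2.89 and 0.70, above its WT differences of 0.52, -0.08 and -1.75, and was also listed at 0 in 1 KO DMSO library.

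The only transcript among the 8 shared by the WT and KO lists with opposite directions was uc029wvi.1. Its WT levels were 2.41, 5.78 and 1.38 TPM with DMSO and 10.8, 7.02 and 8.93 TPM with rosiglitazone. Its KO levels were 8.10, 16.7, 4.72 and 12.1 TPM with DMSO and 3.09, 8.42, 0.675 and 6.09 TPM with the drug. All 3 WT pairs were higher and all 4 KO pairs lower, with differences of 1.79, 0.24 and 2.06 against -1.15, -0.91, -1.77 and -0.88. The interaction was -2.54 (SE 0.77, 95% interval -4.20 to -0.89; limma, adjusted p = 1.00). The other KO responders named as reversed in WT were uc011zpt.1 and uc057abn.1, each listed at 0 in 2 libraries, with interactions of 3.46 (SE 1.33) and -3.32 (SE 1.35). Of the 15 transcripts named for the largest blunted and reversed responses, 13 had a library under 0.5 TPM. By the same ratio rule uc008opl.2, uc012apl.1 and uc007zwe.2, named for other reasons, were also blunted WT responders, and none of these had a library under 0.5 TPM.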

How the data were processed

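RNA of 14 carotid artery libraries was sequenced, and the authors deposited 1 table of TPM values for 63244 transcripts. FastQC, kallisto, sleuth, mm10 and GRCm38 are listed in the submitters' processing notes, with versions not given in the sources used here. Read depth cannot be had from TPM, and no counting interval is given. TPM is a share of each library, and reads shared by similar transcripts are divided by estimation, so an exact 0 can be a failed assignment. Columns were matched to samples by sample number, and groups come from the labels.

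The identifiers were compared with the gene tables at hand and 0 matched. The 3 gene lists and 7 marker lists that had been fixed were therefore not tested, and no sequence is printed.

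Transcripts that reached 1 TPM in 3 or more libraries, 29304 in all and including all 12552 described, were tested as log2(TPM + 1) with limma 3.58.1 in R 4.3.3. The model had 1 mean per group over 14 libraries and a variance trend, its tests were two-sided, and p-values were Benjamini-Hochberg adjusted over all tested. Other summaries used Python 3.11.15 with pandas 2.3.3 and SciPy 1.17.1. The fit was tested on simulated data.

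At most 2 transcripts per direction and class were named by rule, 23 in all: the largest mean of 7 differences where all had one sign, the smallest interaction p, and the largest responses among blunted and reversed responders. The transcripts and lists were chosen with earlier results of these data known. Alternatives covered the pseudocount (0.1 and 5), the filter, scaling, variance model, library weights, replicate numbers, sample numbers and leaving out each library.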

Additional observations from a re-analysis of the deposited data

Results flagged for a closer look

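Among 72 sets of 4 KO values (levels or pair differences of the named transcripts and 3 summaries of the KO pairs), 4 held a value far from the other 3, and chance alone gives about 1 in 20. The gap to the nearest library, as a share of the range of the 4, was 0.851 for KO DMSO replicate 4 of uc007ppt.2 and 0.887 for KO DMSO replicate 2 of uc009nhb.1. It was 0.942 for KO rosiglitazone replicate 4 of uc029wbi.1 and 0.852 for KO rosiglitazone replicate 3 of uc008jke.2.

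In 4 named transcripts every WT pair moved one way and every KO pair the other. Over all 12552 transcripts, 40 (0.319%) were higher in all WT and lower in all KO pairs, and 41 (0.327%) the reverse. The 4 were named for a small interaction p or as reversed responders, and both choices favour this pattern. The interactions of the 4 were 0.96 for uc008lwi.2, -1.22 for uc009nhb.1, -2.57 for uc007yrz.1 and -2.54 for uc029wvi.1, and none passed after adjustment (limma, adjusted p = 0.345 for uc008lwi.2 and 1.00 for the others).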

How the results depend on the processing

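The count of 0 transcripts with an interaction in limma became 1 with a random replicate block (uc008lwi.2) and 2 without the KO libraries of sample numbers 18 to 21, and was 0 whichever single library was left out. The count at an unadjusted p under 0.05 ran from 113 to 345, against 129. Paired by replicate number, with the replicate block as a fit on the pair differences, 0 passed and 345 had an unadjusted p under 0.05. The main fit did not take the numbers as pairs, because the labels do not tie a number to an animal. Same-numbered libraries of a genotype had correlations of their deviations of 0.072 to 0.219, over 0.1 for 4 of 7 numbers. Libraries were closest to their own number for 5 of 7, all but KO 1 and KO 2. The main fit thus leaves out a likeness that most numbers showed.

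The WT response gave 1 call in place of 0 with library weights, the replicate block, the random block or the number range as a covariate, 2 without the libraries numbered 18 to 21, and 0 without any single library. The KO response gave 2 calls with the random block, with the covariate and without those libraries, and 0 to 3 without single libraries (3 without KO rosiglitazone replicate 1). The mean response gave 2 calls with a pseudocount of 0.1, 5 with weights, 1 with the replicate block, 45 with the random block, 3 with the covariate, 1 without the libraries numbered 18 to 21 and 0 to 5 without single libraries (5 without KO DMSO replicate 2, 3 without WT rosiglitazone replicate 3 or KO rosiglitazone replicate 3, and 1 without KO rosiglitazone replicate 1 or 4). The cause was not tested.

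The share of WT responders blunted or reversed in KO, 70.8%, was 53.1% for responses of at least 0.5, 80.0% with a pseudocount of 5, 54.5% at 20 TPM or more, 59.4% without the KO pairs numbered 18 to 21, and 66.7% to 78.3% without single pairs. The share of KO responders blunted or reversed in WT, 56.0%, was 42.9% for responses of at least 0.5 and 63.2% with a pseudocount of 5. It was 38.5% at 20 TPM or more, 72.0% without those pairs, and 56.0% to 74.5% without single pairs. The number of WT responders ran up to 212 and of KO responders up to 129 without single pairs of their own genotype. The difference in spread was 0.015 to 0.036 without single pairs.

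For the 23 named transcripts, interaction values were counted under part of the alternatives only. These were a pseudocount of 5, median-of-ratios scaling, the fit on pair differences, and leaving out numbers 18 to 21 or single libraries. Of these 414 values, 401 kept sign and side of the threshold, 2 newly passed and 11 changed sign. The random block, with which uc008lwi.2 passed, is not among them. For uc007ppt.2 the value was 0.62 without the libraries numbered 18 to 21 and -0.42 to 0.17 without single libraries. For uc012dxs.1 it was 0.015 with a pseudocount of 5 and -0.34 to 0.32 without single libraries. For uc009hcg.1 it was -2.16 without the libraries numbered 18 to 21.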
